A study of Nothobranchius furzeri with 68 samples.

Results

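The mitosis genes are 10 genes of the killifish genome that drive or mark cell division: the cyclin-dependent kinase cdk1, the cyclins ccna2 and ccnb1, the spindle checkpoint kinase bub1, the anaphase activator cdc20, the kinases plk1, aurka and aurkb, the topoisomerase top2a, and the proliferation marker mki67. They were named for their known roles, with earlier results of these data at hand, and all 10 were present among the 25065 genes of the liver counts and the 25099 genes of the muscle counts. In the files aurkb and top2a carry the identifiers LOC107379320 and LOC107388094, and the other members carry their symbols. All 10 passed the filter on low counts in both tissues, which kept 17406 genes in liver and 16380 in muscle.

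A dividing cell copies its DNA, enters mitosis when cyclin B with Cdk1 becomes active, and leaves it when the anaphase promoting complex, turned on by Cdc20, destroys the cyclins. The spindle checkpoint, in which Bub1 acts, holds back Cdc20 until every chromosome is attached. RNA of these genes is low in resting cells and accumulates in cells that pass from S phase to mitosis. In an adult liver the hepatocytes are mostly at rest. Which cells the transcripts came from was not measured in these bulk tissues.

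The animals were turquoise killifish of the species Nothobranchius furzeri, which matures and ages fast, either wild type (WT) or heterozygous (Het) for APRT, the gene of the enzyme adenine phosphoribosyltransferase, which makes AMP from adenine. The allele and the strain are not given in the sources used here. Young fish were 6.5 weeks and old fish 15 weeks of age. They had free access to food (fed) or went without it for 24 h before dissection (fasted). The 41 livers came from 41 fish in 12 groups and the 27 muscles from 27 of the same fish in 8 groups. Livers of fed fish were all from males, and all muscles were from fasted fish, so that feeding was compared in male liver, and age, genotype and sex in both tissues. Groups held 3 fish, except 8 Het groups of 4.

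Polyadenylated RNA was sequenced, with 19949104 to 31600126 counts in a liver and 24144462 to 31331150 in a muscle. Levels are given as CPM, the count of a gene relative to the library's total, scaled with trimmed-mean size factors. The gene aprt itself had a lower mean in Het than in WT in 10 of 10 pairs of groups that differed only in genotype, with no overlap between fish in 6 of them. Summed levels of 14 hepatocyte markers ran from 63130 to 231631 CPM in liver and from 9.86 to 3598 CPM in muscle, and those of 12 skeletal muscle markers from 123670 to 329323 CPM in muscle and from 2.39 to 268 CPM in liver. Markers of leukocytes, cells that can themselves divide, varied widely, with a sum over 15 genes of 13.3 to 662 CPM in liver and 19.5 to 237 CPM in muscle. The sum of 11 erythroid markers ran from 26.3 to 159 CPM in liver and from 54.6 to 156 CPM in muscle. Of the 7 markers of the female germline, the summed level reached at most 3.43 CPM in liver. The sum of 2 exocrine pancreas markers ran from 46.8 to 3091 CPM in liver and from 1.44 to 60.8 CPM in muscle.

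In liver the fed old WT males had the highest mean of the 12 groups for all 10 genes, and the fed old Het males had the second highest for all 10. Averaged over the 10 genes, the level was 3.78 ± 0.32 log2 CPM in fed old WT males (SD, n = 3), 1.81 ± 0.998 in fed old Het males (SD, n = 4) and 0.84 ± 1.30 in fasted old WT males (SD, n = 3). The spread in the last of these groups reached that of the group above it. Fed young males followed at 0.61 ± 0.32 in WT (SD, n = 3) and 0.60 ± 0.64 in Het (SD, n = 4), less than 1 SD apart. The remaining groups, all fasted, had means between 0.32 in old WT females and -0.80 in young WT males, with SDs of 0.27 to 0.75, and neighbours in that order did not differ beyond their spread. In bulk tissue, fewer dividing cells and less of these RNAs per cell cannot be told apart.

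**Figure D1:**
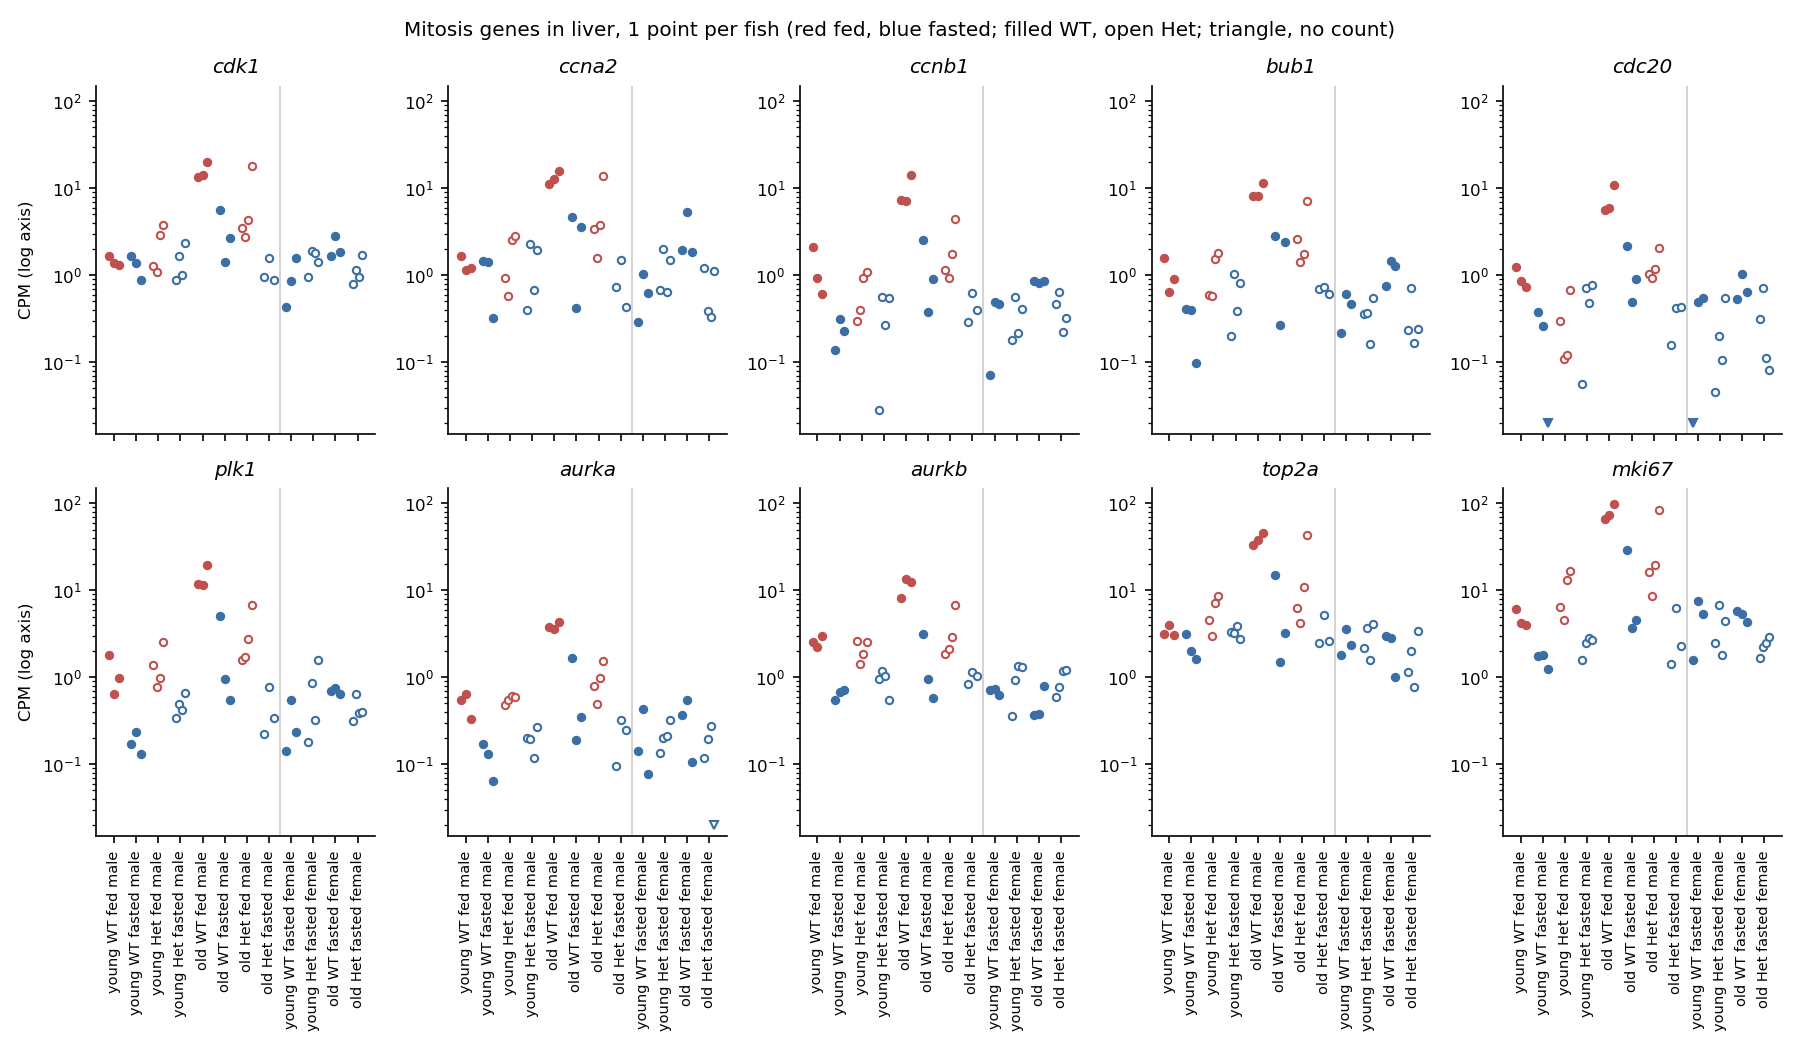
CPM of the 10 mitosis genes in each of 41 livers on a log axis, 1 point per fish, with fed fish in red, fasted fish in blue, WT filled, Het open, and a triangle for a library with no count. The fed old WT males have the highest group mean in every panel. Of the 4 fed old Het males, fish 14 lies within their range for cdk1, ccna2, top2a and mki67 and below it for the other 6 genes.

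Fasting of old WT males was followed by lower levels of every mitosis gene. All 10 were called lower by edgeR at an adjusted p under 0.05, against 28.9% of all genes called in either direction and 15.6% called lower. The log2 fold changes ran from -2.88 to -2.19, with a median of -2.60 beside 0.08 over all genes tested. No fasted fish reached any fed fish for any of the 10, where 19.8% of all genes separated the fish in that direction.

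Among the drivers of mitotic entry, cdk1, whose kinase activity starts mitosis, was at 13.5, 14.3 and 20.1 CPM in the fed fish and at 5.67, 1.41 and 2.65 CPM in the fasted fish. All fed fish lay above all fasted fish, and the log2 fold change was -2.29 ± 0.56 (SE, edgeR adjusted p 0.00278). Its partner in S and G2 phase, ccna2, was at 11.1, 12.9 and 15.7 CPM fed and 4.66, 0.419 and 3.55 CPM fasted, with fasted fish 19 far below the other fasted fish (-2.19 ± 0.77, adjusted p 0.0299). The mitotic cyclin ccnb1 had 7.30, 7.17 and 14.3 CPM fed and 2.55, 0.381 and 0.896 CPM fasted. It had the largest fall of the 10, by 2.88 ± 0.68 on the log2 scale (SE, adjusted p 0.00207).

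The checkpoint and anaphase genes moved the same way. For bub1, which signals unattached chromosomes, the fed fish had 8.15, 8.06 and 11.5 CPM and the fasted fish 2.81, 0.267 and 2.42 CPM, again with fish 19 lowest (-2.32 ± 0.65, adjusted p 0.00725). For cdc20, which turns on the anaphase promoting complex, the values were 5.60, 5.92 and 11.0 CPM fed and 2.15, 0.496 and 0.896 CPM fasted. The groups did not overlap, and cdc20 fell by 2.64 ± 0.80 (SE, adjusted p 0.0127).

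Of the mitotic kinases, plk1, which acts from entry to cytokinesis, was at 11.9, 11.5 and 19.6 CPM fed and 5.03, 0.953 and 0.545 CPM fasted (-2.69 ± 0.66, SE, adjusted p 0.00263). The centrosome kinase aurka was at 3.83, 3.57 and 4.38 CPM fed and 1.69, 0.191 and 0.351 CPM fasted (-2.36 ± 0.59, adjusted p 0.00321). In both genes fasted fish 18 lay well above the other fasted fish and below all fed fish. The kinase of the chromosomal passenger complex, aurkb, had 8.13, 13.6 and 12.4 CPM fed and 3.18, 0.953 and 0.584 CPM fasted, and the smallest adjusted p of the 10 (0.000102, log2 fold change -2.83 ± 0.49).

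The gene of topoisomerase II alpha, top2a, which untangles sister chromatids, was at 33.5, 37.9 and 45.6 CPM in fed and 14.9, 1.49 and 3.27 CPM in fasted fish (-2.55 ± 0.67, SE, adjusted p 0.00468). The proliferation marker mki67 was at 65.8, 73.6 and 99.7 CPM in fed and 29.5, 3.74 and 4.52 CPM in fasted fish (-2.65 ± 0.70, adjusted p 0.00493). For both genes the fasted fish 18 stood at several times the level of fish 19 and 20 and still below every fed fish.

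Fish 18 had the highest value of the 3 fasted old WT males for all 10 genes, and it also had the highest leukocyte marker sum of all livers, at 662 CPM, beside 175 and 36.2 CPM in fish 19 and 20. In the fed fish the leukocyte sum was 439, 117 and 13.3 CPM in fish 4, 5 and 6, and fish 6, with the lowest sum, had the highest value of 9 of the 10 mitosis genes. Of 14 leukocyte markers tested, 1 was called higher and 0 lower with fasting in these males, and of 14 hepatocyte markers 3 were higher and 0 lower. Of 10 skeletal muscle markers tested, 7 were called lower and 0 higher, with a median log2 fold change of -4.51. Their sum over 12 genes was 11.7, 268 and 4.21 CPM in fed fish 4, 5 and 6 and 5.71, 7.09 and 6.00 CPM in the fasted fish, so that fish 5 alone was high. Without fish 5, 9 of the 10 mitosis genes were called and their median was -2.63. Of 11 erythroid markers tested, 3 were called lower and 1 higher with fasting in these males. Their sum was 64.6 to 105 CPM in the fed and 26.3 to 76.3 CPM in the fasted fish, with overlap. The part of leukocytes, erythroid cells and muscle tissue in the mitosis result was not tested. Leaving out each fish in turn kept 8 to 10 of the 10 calls, and without fish 18 all 10 genes were called. In a fit of these 6 libraries alone, 0 of the 10 were called, with 943 genes called in place of 5033, and all 10 had an estimate below 0.

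Old Het males also had lower mitosis genes after fasting. Of the 10 genes, 9 were called lower, where edgeR called 31.8% of all genes in either direction and 16.3% lower. All 10 estimates were below 0. The median log2 fold change was -2.25, beside 0.01 over all genes. The largest fall was that of mki67, from 16.2, 8.68, 19.5 and 84.4 CPM in the fed fish to 1.43, 6.31 and 2.30 CPM in the fasted fish (-3.26 ± 0.71, SE, adjusted p 0.000798). For 9 of the 10 genes every fed fish lay above every fasted fish, as for 19% of all genes, and fed fish 14 was far above the rest for mki67. The kinase plk1 went from 1.60, 1.73, 2.74 and 6.84 CPM fed to 0.223, 0.770 and 0.337 CPM fasted (-2.85 ± 0.68, adjusted p 0.00168), and cdk1 from 3.48, 2.77, 4.29 and 17.9 to 0.956, 1.57 and 0.888 CPM (-2.64 ± 0.56, adjusted p 0.000656). Here too fish 14 was the highest fed fish.

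The gene that missed the threshold was cdc20, at 1.04, 0.922, 1.17 and 2.04 CPM fed and 0.159, 0.415 and 0.429 CPM fasted, with no overlap between the groups (-1.94 ± 0.80, adjusted p 0.0627). Of the called genes only top2a overlapped between fed and fasted fish, at 6.31, 4.23, 10.9 and 43.9 and 2.49, 5.19 and 2.60 CPM (-2.25 ± 0.65, adjusted p 0.00808). Its lowest fed fish, fish 12, lay below the highest fasted fish, fish 26. Without fish 14 the number of called members was 5 in place of 9. Fish 26 had the highest leukocyte marker sum of the fasted old Het males (538 CPM, the others 74.6 and 57.8 CPM). It also had the highest value of 9 of the 10 mitosis genes in that group, and the part of leukocytes was not tested. Of 14 hepatocyte markers tested, 4 were called lower and 0 higher with fasting in old Het males, with a median log2 fold change of -0.39. The 3 fasted old Het males had endothelial marker sums of 337 to 468 CPM, above the 83.3 to 121 CPM of the fed ones. Yet of 11 endothelial markers tested, 2 were called higher and 0 lower. Their median log2 fold change was 0.20 and their highest 5.05. Of 11 erythroid markers tested, 3 were called lower and 2 higher with fasting in old Het males. The part of hepatocytes, endothelial cells and erythroid cells in the mitosis result was not tested either.

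In young males fewer of the mitosis genes were called for fasting than in old males. Their mean level in fed fish was lower in young than in old males of each genotype, although in Het no member was called for age. In young WT males 4 of 10 were called lower with fasting, where 10.7% of all genes were called and 4.14% were called lower. All 10 estimates were below 0. The median log2 fold change over the 10 was -1.87, beside -0.02 over all genes. The called genes were ccnb1, plk1, aurka and aurkb. The cyclin ccnb1 was at 2.12, 0.921 and 0.604 CPM fed and 0.137, 0.317 and 0.227 CPM fasted (-2.37 ± 0.74, SE, adjusted p 0.0332). The kinase plk1 was at 1.79, 0.648 and 0.973 CPM fed and 0.171, 0.238 and 0.130 CPM fasted (-2.61 ± 0.75, adjusted p 0.0219), and aurkb at 2.52, 2.22 and 2.99 and 0.547, 0.686 and 0.715 CPM (-1.98 ± 0.49, adjusted p 0.00823). All fed fish exceeded all fasted fish for these genes and for aurka (-2.02 ± 0.67, adjusted p 0.0486).

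The genes cdk1, ccna2 and top2a had the estimates nearest to 0 in the young WT males. For cdk1 the fish were at 1.68, 1.36 and 1.31 CPM fed and 1.67, 1.40 and 0.877 CPM fasted (-0.14 ± 0.57, adjusted p 0.936). For ccna2 they were at 1.64, 1.16 and 1.21 CPM fed and 1.47, 1.43 and 0.325 CPM fasted (-0.31 ± 0.78, adjusted p 0.883). Fed and fasted fish overlapped for these genes and for top2a (-0.59 ± 0.67, adjusted p 0.675). The other 3, bub1, cdc20 and mki67, had estimates of -1.76, -2.12 and -1.57 with adjusted p of 0.105, 0.116 and 0.174, and no overlap between fed and fasted fish. In all, 7 of the 10 separated the fish downwards, as did 16.1% of all genes. These levels rest on few reads: cdc20 had no count in fasted fish 33, where 3 counts would be 0.0975 CPM, and aurka had fewer than 10 counts in 24 of the 41 livers. Without fish 31, 32, 33 or 45, 1 of the 10 genes was called in place of 4.

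In young Het males 1 of the 10 genes was called lower with fasting, where 13.5% of all genes were called and 7.12% were called lower. Of the 10 estimates 9 were below 0. The called gene was mki67, at 6.45, 4.51, 13.2 and 16.8 CPM fed and 1.59, 2.51, 2.82 and 2.67 CPM fasted, without overlap (-2.09 ± 0.62, SE, adjusted p 0.0228). The kinases plk1 (-1.56 ± 0.60, adjusted p 0.0793), aurka (-1.49 ± 0.56, 0.0717) and aurkb (-1.16 ± 0.42, 0.0600) missed the threshold. These and mki67 were the 4 genes without overlap between fed and fasted fish, a property of 11.8% of all genes. The estimate of cdc20 was above 0 (0.75 ± 0.76, adjusted p 0.578), at 0.296, 0.109, 0.122 and 0.677 CPM fed and 0.0567, 0.718, 0.475 and 0.775 CPM fasted, with overlap between the groups. The call of mki67 was lost without fish 38, 39, 54 or 55, and 2 genes were called without fish 53. The median over the 10 genes was -0.93, beside 0.02 over all genes. Of 11 erythroid markers tested for fasting, 2 were called lower and 0 higher in young Het males. In young WT males 2 were called lower and 1 higher. The part of erythroid cells was not tested.

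**Figure D2:**
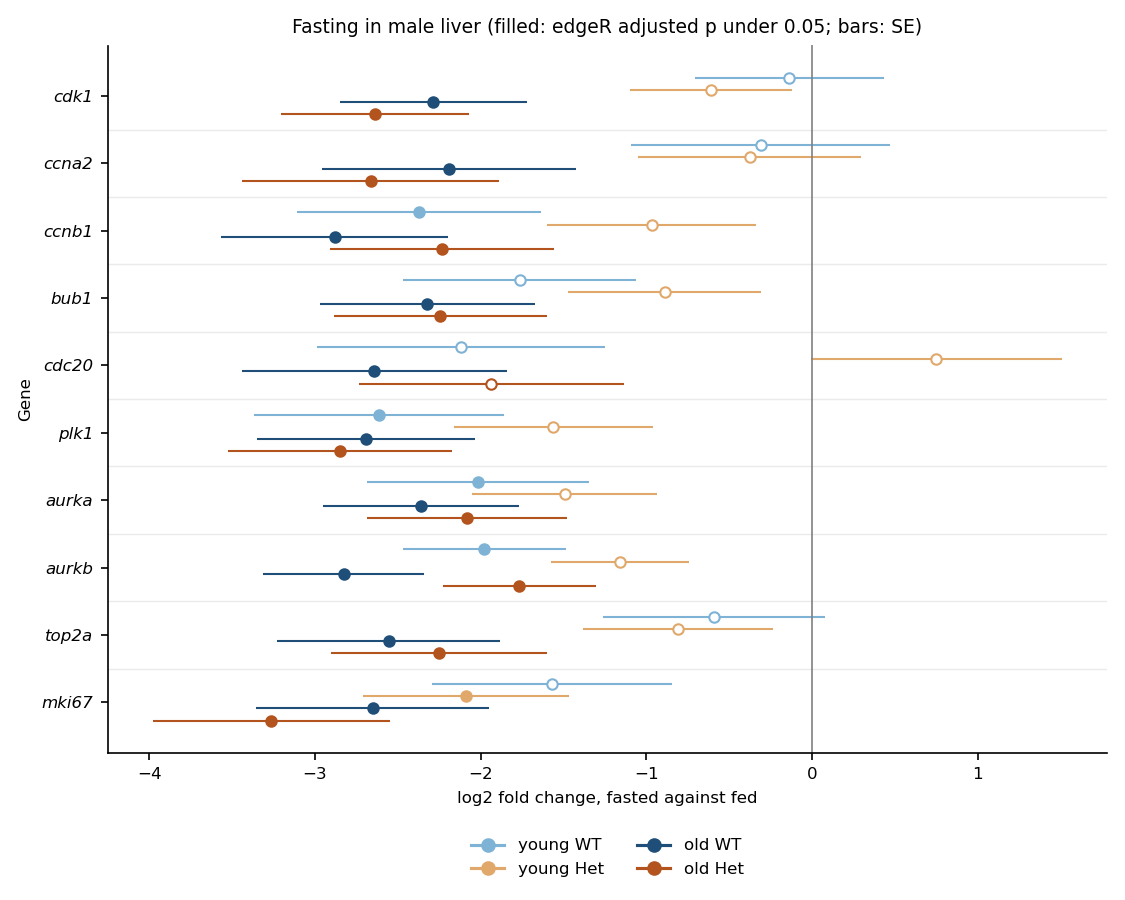
Log2 fold change of each mitosis gene between fasted and fed male liver in 4 pairs of groups, with bars of 1 SE and filled points for an edgeR adjusted p under 0.05. In old fish the estimates of all 10 genes lie between -3.26 and -1.77, while in young fish cdk1, ccna2 and top2a lie between -0.81 and -0.14.

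Tests of the difference between these responses called no mitosis gene. Between old and young WT males the difference in fasting response was below 0 for 10 of 10 genes, with a median of -0.70, but 0 were called by edgeR or by DESeq2, and 2 had an unadjusted p under 0.05, where 0.0172% of all genes were called. Between old and young Het males the median difference was -1.32, with 0 genes called by either tool and 3 at an unadjusted p under 0.05, where 1.15% of all genes were called. For the difference between Het and WT, edgeR and DESeq2 called 0 of the 10 in young males (median 0.67, 1 at an unadjusted p under 0.05, 1.53% of all genes called). In old males edgeR called 0 (median 0.18, 0 at an unadjusted p under 0.05, 1.25% of all genes called). DESeq2 also called 0 in old males, but it gave no adjusted p for 5 of the 10. Without fasted WT fish 18, 1 gene was called for the difference in old males. Of the 17406 genes tested, 1826, 2395, 1923 and 3288 had an unadjusted p under 0.05 in these tests, in the order given.

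In fed WT males all 10 mitosis genes were higher in old than in young fish. By edgeR 10 of 10 rose with age, where 9.43% of all genes were called and 6.13% were called higher. The median log2 fold change was 3.22, beside 0.03 over all genes, and no old fish overlapped a young one for any of the 10, as for 20.9% of all genes. This comparison shares its old fed fish with the fasting and genotype comparisons of old fish, and its young fed fish with the fasting and genotype comparisons of young fish. The largest rise was that of mki67, from 6.14, 4.20 and 3.96 CPM in young fish to 65.8, 73.6 and 99.7 CPM in old fish (4.06 ± 0.75, SE, adjusted p 0.00106). All old fish stood far above every young fish, and the same order held for plk1, at 1.79, 0.648 and 0.973 CPM young and 11.9, 11.5 and 19.6 CPM old (3.65 ± 0.69, adjusted p 0.00121).

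Among the genes of entry and chromosome separation, cdk1 rose by 3.46 ± 0.60 (SE, adjusted p 0.000617), top2a by 3.51 ± 0.71 (0.00187) and ccna2 by 3.30 ± 0.81 (0.00900). For top2a the young fish were at 3.18, 4.02 and 3.05 CPM and the old fish at 33.5, 37.9 and 45.6 CPM. The smallest rise was that of aurkb, from 2.52, 2.22 and 2.99 to 8.13, 13.6 and 12.4 CPM (2.14 ± 0.47, adjusted p 0.00408). The other 4, ccnb1, bub1, cdc20 and aurka, rose by 2.98, 3.15, 2.98 and 2.93. The leukocyte marker sum was 14.7 to 136 CPM in the young and 13.3 to 439 CPM in the old fed WT fish, so that the ranges overlapped, and 0 of 14 leukocyte markers tested were called, although their median estimate was 3.00. Leaving out each fish in turn kept 8 to 10 calls. Of 10 skeletal muscle markers 1 was called higher in old fish (median 2.94), and without fish 5, which had the high muscle marker sum, all 10 mitosis genes were called. The summed level of 2 exocrine pancreas markers was 1587 to 1709 CPM in young and 96.5 to 491 CPM in old fed WT fish, without overlap. Of these 2 markers 0 were called, with a median log2 fold change of -2.42. The part of leukocytes, of muscle tissue and of pancreas tissue was not tested.

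In fed Het males edgeR called 0 of the 10 genes, and 0% of all genes, for age. DESeq2 also called 0 of the 10, with 76 called among all genes. In edgeR 8 of the 10 had an unadjusted p under 0.05, where 1633 of 17406 genes did. The estimates of the 10 were all above 0, with a median of 1.57. For mki67 the young fish were at 6.45, 4.51, 13.2 and 16.8 CPM and the old fish at 16.2, 8.68, 19.5 and 84.4 CPM (1.66 ± 0.59, SE, adjusted p 0.360). Only fish 14 stood clear of the young range, since fish 11, 12 and 13 lay within or just above it. For cdc20 the young fish were at 0.296, 0.109, 0.122 and 0.677 CPM and the old at 1.04, 0.922, 1.17 and 2.04 CPM (2.11 ± 0.74, adjusted p 0.358), the one member with no overlap between the ages, where 2.33% of all genes separated the fish in that direction. Whether the effect of age differed between the genotypes was not tested.

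In fasted fish the sexes and genotypes were pooled as equal groups. For age 20.3% of all genes were called, and 10.6% were called higher in old liver. Near these shares, 2 of the 10 mitosis genes were higher in old liver. They were ccnb1 (1.09 ± 0.36, SE, adjusted p 0.0307), at a median of 0.622 CPM in 13 old and 0.292 CPM in 14 young livers, and bub1 (1.01 ± 0.35, 0.0357), at 0.708 and 0.391 CPM. The lowest and highest values were 0.223 and 2.55 CPM in old and 0.0284 and 0.567 CPM in young fish for ccnb1, so that the ages overlapped. The highest old fish was fish 18, and without it 0 of the 10 genes were called, as without fish 26 or 28. Leaving out fish 16, 17, 22, 31, 33, 36 or 40 left 1 call. All 10 estimates were above 0, with a median of 0.71, beside 0.01 over all genes. Age was not tested within each genotype of fasted fish. The mean over the 10 genes was 0.84 log2 CPM in old and -0.80 in young WT males, and 0.32 and -0.55 in WT females. In Het it was -0.24 in old and -0.25 in young males, and -0.59 and -0.31 in females. Leukocyte markers moved with age here: of 14 tested, 11 were called higher and 1 lower in old liver, with a median log2 fold change of 2.11. Their summed level ran from 36.2 to 662 CPM in old and from 21.0 to 59.8 CPM in young fasted livers, and fish 18 and 26 had the highest sums. Fish 28, without which no member was called either, belonged to the fasted young WT females, with sums of 36.6 to 43.5 CPM. The part of leukocytes was not tested.

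**Figure D3:**
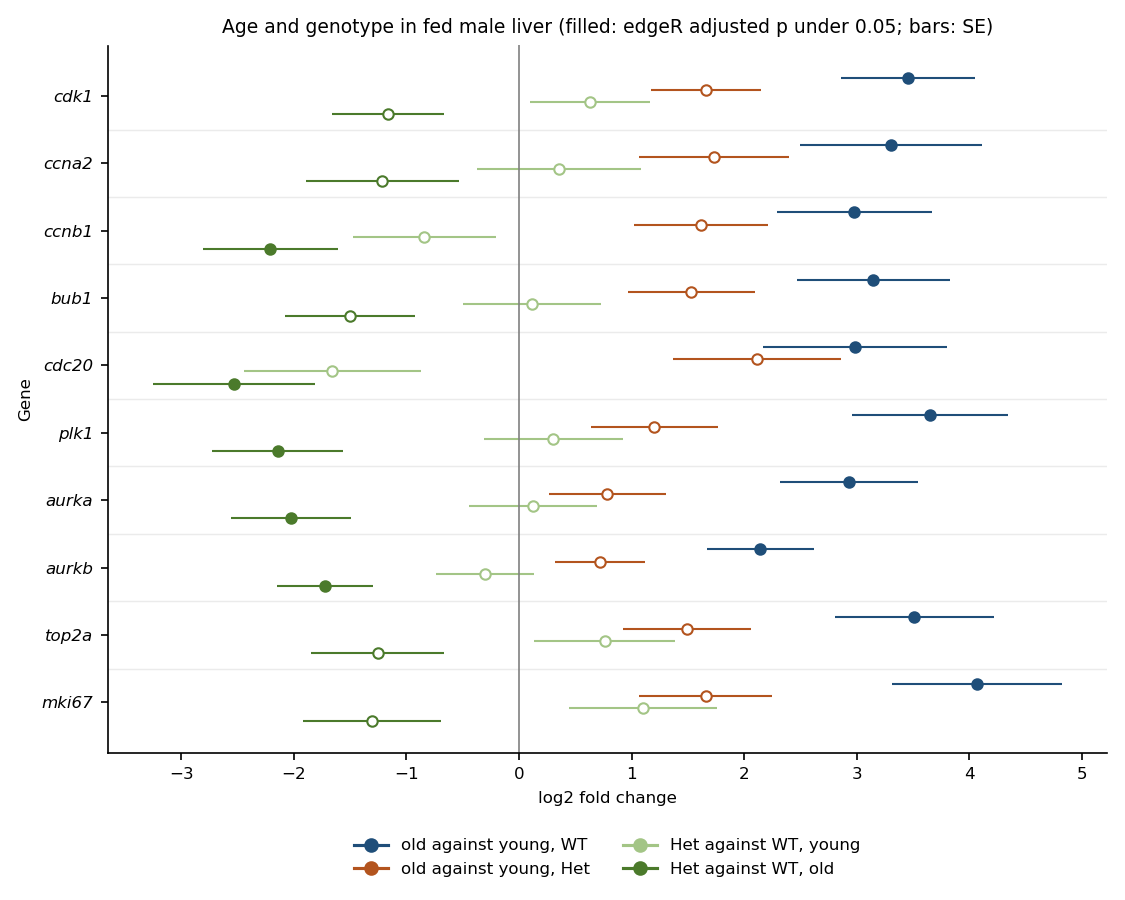
Log2 fold change of each mitosis gene in fed male liver for age in WT and in Het and for genotype in young and in old fish, with bars of 1 SE and filled points for an edgeR adjusted p under 0.05. The age estimates in WT run from 2.14 to 4.06 and those in Het from 0.72 to 2.11, and the genotype estimates in old fish lie between -2.53 and -1.16.

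In fed old males 5 of the 10 mitosis genes were lower in Het than in WT, where edgeR called 7.33% of all genes and 3.88% were lower. The 5 were the anaphase activator cdc20, the cyclin ccnb1 and the kinases plk1, aurka and aurkb. The median log2 fold change over the 10 was -1.61, beside -0.0015 over all genes. For cdc20 the WT fish were at 5.60, 5.92 and 11.0 CPM and the Het fish at 1.04, 0.922, 1.17 and 2.04 CPM (-2.53 ± 0.72, SE, adjusted p 0.0282). For aurkb they were at 8.13, 13.6 and 12.4 CPM and 1.84, 2.11, 2.93 and 6.87 CPM (-1.72 ± 0.42, adjusted p 0.0126). Every WT fish exceeded every Het fish for the 5 called genes and for bub1, 6 of the 10, as for 11.1% of all genes. The estimates of ccnb1, plk1 and aurka were -2.21, -2.14 and -2.02, with adjusted p of 0.0226, 0.0223 and 0.0176.

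The 5 genes that were not called had 1 Het fish, fish 14, at or near the WT level. For mki67 the Het fish 11 to 14 were at 16.2, 8.68, 19.5 and 84.4 CPM beside 65.8, 73.6 and 99.7 CPM in WT (-1.31 ± 0.62, adjusted p 0.195), and for top2a at 6.31, 4.23, 10.9 and 43.9 CPM beside 33.5, 37.9 and 45.6 CPM (-1.26 ± 0.59, 0.194). Fish 14 was within the WT range for cdk1, ccna2, top2a and mki67, at 112%, 105%, 112% and 106% of the WT mean, and below every WT fish for the other 6 genes. Of these 6 it was nearest to WT for bub1, at 78.2% of the WT mean, followed by aurkb at 60.3%, plk1 at 47.7%, ccnb1 at 46.0%, aurka at 39.6% and cdc20 at 27.2%.

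Fish 11, 12 and 13 were below every WT fish for all 10 genes, at medians of 18.3%, 12.2% and 24.7% of the WT mean. The leukocyte marker sum was 18.9, 17.8, 408 and 21.9 CPM in fish 11, 12, 13 and 14, and the part of leukocytes was not tested. The calls depended on single fish. Without fish 14 all 10 genes were called lower, and without fish 11, 12 or WT fish 5 none was, while without fish 13 or WT fish 6 the number was 2. Skeletal muscle markers moved with genotype too, with 6 of 10 tested called lower in Het and 0 higher and a median log2 fold change of -3.52. Their summed level was 11.7, 268 and 4.21 CPM in WT fish 4, 5 and 6 and 9.67, 5.84, 10.9 and 10.6 CPM in Het fish 11 to 14, so that fish 5 alone was high. Without fish 5 the median of the mitosis genes was -1.58, beside -1.61 with it. In that fit 0 of the mitosis genes and 75 of all genes, in place of 1276, were called. The part of muscle tissue was not tested. In a fit of these 7 libraries alone 2 mitosis genes were called.

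**Figure D4:**
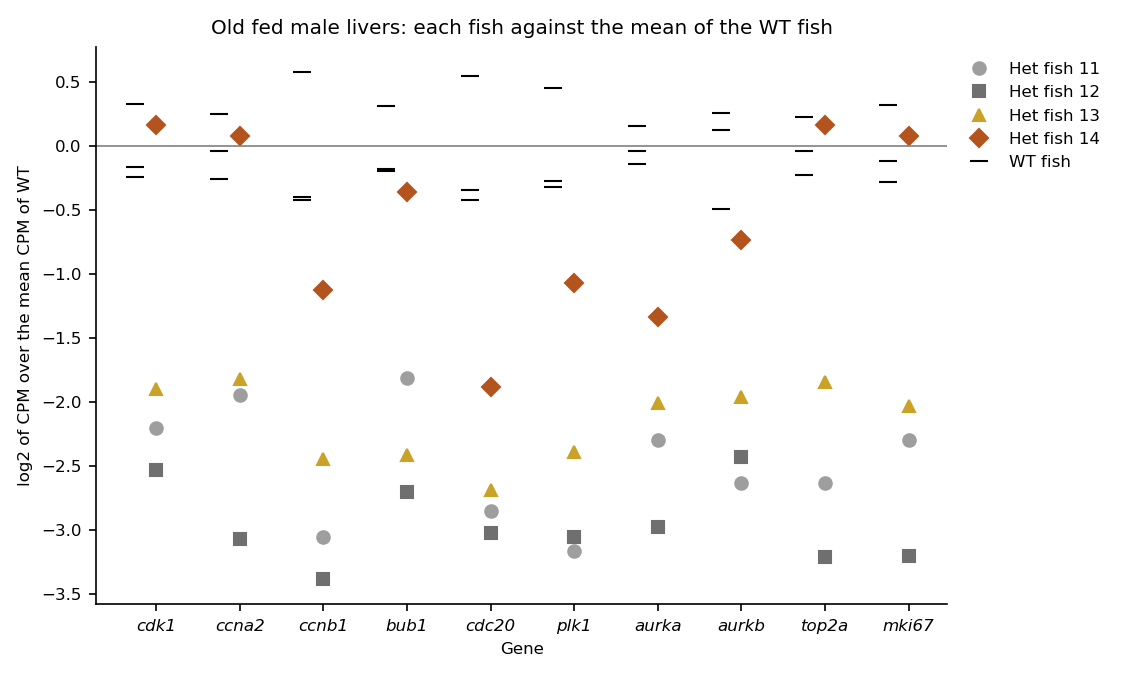
Log2 of the CPM of each fed old Het male over the mean CPM of the 3 fed old WT males, for the 10 mitosis genes, with the WT fish as short lines. Fish 11, 12 and 13 lie below all WT fish in every gene, and fish 14 lies among the WT fish for cdk1, ccna2, top2a and mki67 and below them for the other 6 genes.

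No member was called for genotype in fed young males, or in fasted liver with ages and sexes pooled. In fed young males edgeR and DESeq2 each called 0 of the 10, where 5.8% of all genes were called, 2.78% higher and 3.02% lower. Beside 3157 of 17406 genes, 1 member had an unadjusted p under 0.05. That was cdc20, at 1.24, 0.853 and 0.738 CPM in WT and 0.296, 0.109, 0.122 and 0.677 CPM in Het (-1.66 ± 0.79, SE, adjusted p 0.253), without overlap, as for 11.8% of all genes in that direction. In fasted liver, over both ages and sexes, both tools called 0, where edgeR called 0.132% of all genes. Beside 1547 of 17406 genes, 1 member had an unadjusted p under 0.05 in fasted liver. The 10 estimates there ran from -0.70 to 0.30. Genotype was not tested within 1 age or sex of fasted liver, where the means over the 10 genes went in opposite directions. In old fish they were 0.84 log2 CPM in WT and -0.24 in Het males, and 0.32 and -0.59 in females. In young fish they were -0.80 in WT and -0.25 in Het males, and -0.55 and -0.31 in females. The SDs of these groups ran from 0.27 to 1.30.

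Between the sexes, fasted livers gave 0 calls among the mitosis genes by edgeR and by DESeq2, where 42.7% of all genes were called. An unadjusted p under 0.05 was reached by 0 of the 10, beside 8822 of 17406 genes. Females minus males, the estimates ran from -0.62 for top2a to 0.12 for mki67. Averaged over the 10 genes, the level ran from -1.38 to 0.65 log2 CPM in 14 females, with a median of -0.29, and from -1.37 to 2.25 in 13 males, with a median of -0.35. Of 14 hepatocyte markers tested, 10 were called lower in females and 0 higher, with a median log2 fold change of -0.71. Of 14 leukocyte markers tested, 5 were called lower and 0 higher, with a median of -1.42. The part of these cell types was not tested. The difference between the sexes in the effect of age was called for 0 of the 10 by both tools, where 0.954% of all genes were called. Here 2 of the 10 had an unadjusted p under 0.05, beside 2344 of 17406 genes.

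In muscle, where most nuclei are in fibres that no longer divide, the levels of the mitosis genes differed widely. The median over 27 libraries was 0.0875 CPM for aurka and 0.360 CPM for cdk1, and it was 6.08 CPM for top2a and 1.83 CPM for mki67. Counts were few, with under 10 reads in 24 of 27 libraries for aurka, 21 for cdc20 and 12 for cdk1. A single call was made for sex, where edgeR called 3.2% of all genes and 1.6% lower in females. It was cdk1, at 0.0685 to 0.685 CPM with a median of 0.288 in 14 females and at 0.255 to 1.49 CPM with a median of 0.538 in 13 males (-0.96 ± 0.25, SE, adjusted p 0.0397). The sexes overlapped, and the highest male was fish 39.

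All 10 estimates were lower in females, with a median of -0.73 beside -0.02 over all genes. An unadjusted p under 0.05 was reached by 5 of the 10, beside 3546 of 16380 genes. Next to cdk1 were ccnb1 (-1.20 ± 0.36, SE, adjusted p 0.0599) and cdc20 (-1.37 ± 0.44, 0.0785). The number of called genes was 0 without fish 15, 17, 18, 19, 24, 26, 28, 30, 31, 32, 34 or 36, and 2 without fish 25, 33 or 38. DESeq2 called 3, and no filter on low counts left 0. Leukocyte marker sums ran from 19.5 to 70.0 CPM in female and from 21.6 to 237 CPM in male muscles, with the highest in males 26, 18 and 19, and their part was not tested.

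Age and genotype gave no calls in muscle. For age edgeR called 0 of the 10, where 13.2% of all genes were called, and 1 was at an unadjusted p under 0.05. This was top2a, at 4.84 to 12.0 CPM with a median of 6.48 in 14 young fish and at 0.398 to 7.47 CPM with a median of 4.39 in 13 old fish (-0.79 ± 0.27, SE, adjusted p 0.0554). DESeq2 called 1 gene for age, and 1 was called by edgeR without fish 15, 20, 22, 23 or 24. Of 12 leukocyte markers tested for age in muscle, 9 were called higher and 0 lower, with a median log2 fold change of 1.10. Of 12 skeletal muscle markers 8 were called lower and 0 higher (median -0.40), and of 13 hepatocyte markers 8 higher and 0 lower. The hepatocyte marker sum was 20.1, 29.3 and 3598 CPM in old Het males, the last in fish 25. It was 11.5 to 211 CPM in old Het females, 22.8 to 39.3 CPM in old WT muscles and 9.86 to 39.9 CPM in young muscles. The part of leukocytes, muscle fibres and hepatocytes was not tested. For genotype edgeR and DESeq2 called 0 of the 10, with 0 at an unadjusted p under 0.05, where 0.0794% of all genes were called. DESeq2 gave no adjusted p for 1 of the 10 there. For the difference between the sexes in the effect of age both tools called 0, with 0 at an unadjusted p under 0.05, where edgeR called 0% of all genes. Of 16380 genes, 4751, 1819 and 1288 had an unadjusted p under 0.05 for age, genotype and this difference.

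One muscle stood apart. Fish 39, a young Het male, had the highest value of its group of 4 for 9 of the 10 genes, and its mean over the 10 was 0.69 log2 CPM, while the next highest muscle, fish 26, was at -0.15. In it cdk1 was at 1.49 CPM beside 0.499, 0.551 and 0.586 CPM in fish 38, 40 and 41, and bub1 at 2.16 CPM beside 0.642, 0.597 and 1.07 CPM. The exception was top2a, at 11.5, 6.35, 12.0 and 7.83 CPM in fish 38 to 41, where fish 39 was the lowest. Its leukocyte marker sum, 33.2 CPM, was within the 30.3 to 43.8 CPM of the group, and its liver had a mean of 0.19 log2 CPM over the 10 genes, beside -0.98 to 0.15 in the livers of the others.

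**Figure D5:**
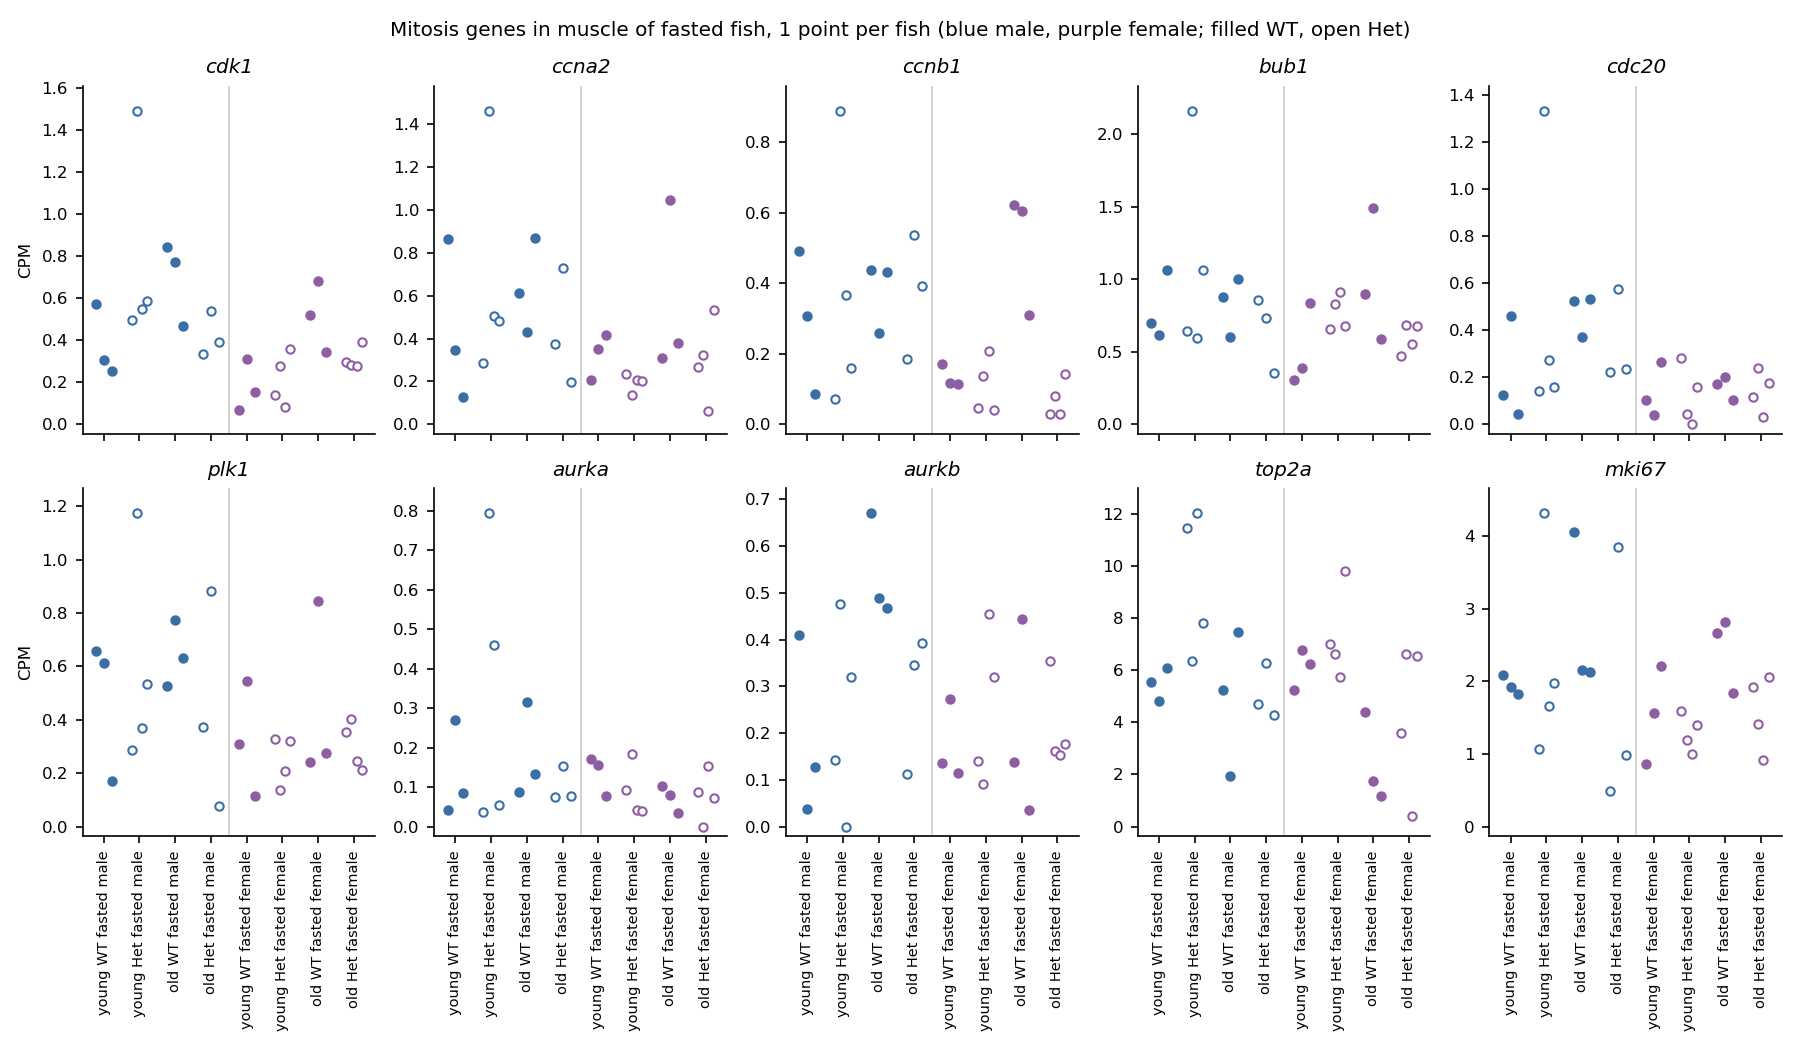
CPM of the 10 mitosis genes in 27 muscles of fasted fish on linear axes that start at 0, 1 point per fish, with males in blue, females in purple, WT filled and Het open. Fish 39, a young Het male, is the highest point of all muscles for 8 genes, and is not the highest for aurkb and top2a.

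Fasted liver and muscle of the same fish were compared by group means, with both tissues of a fish entered as separate, unpaired libraries. Of the 10 genes 6 were called, a smaller share than over all genes, of which 86% were called. Of all genes 44% were higher and 42% lower in liver. The library kit and the instrument differed between the tissues, so that tissue, kit and instrument cannot be told apart. Higher in liver were cdk1 (1.39 ± 0.17, SE, adjusted p 1e-09), aurkb (1.27 ± 0.23, 3.72e-06), ccna2 (1.07 ± 0.26, 0.000277) and mki67 (0.43 ± 0.21, 0.0485). Lower in liver were top2a (-1.39 ± 0.21, 6.68e-08) and bub1 (-0.89 ± 0.21, 0.000111). The call of mki67 was lost in DESeq2, with other size factors, with no filter, and in 25 of 27 fits that left out a fish, and was kept with the fish as a block (0.38, adjusted p 0.00996).

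Genes that work beside the members were read from 10 lists of cell cycle genes, 161 of which were tested in liver. With fasting in old WT males 106 were called lower and 10 higher, with a median log2 fold change of -1.98, and in old Het males 97 lower and 10 higher (-1.70). Of all genes 15.6% were lower and 13.3% higher in the first and 16.3% and 15.4% in the second. In young Het males 49 were lower and 6 higher (-0.99), and in young WT males 8 were lower and 12 higher (-0.46). Of all genes 7.12% were lower and 6.39% higher in young Het and 4.14% and 6.51% in young WT males. Of 21 genes of the spindle checkpoint and kinetochore, 20 fell in old WT males, among them bub3 (-2.08, edgeR adjusted p 0.000229) and bub1b (-2.33, 0.00247), both parts of the checkpoint with bub1. Of 24 genes of replication licensing and S phase, 21 fell, such as the polymerase clamp pcna (-3.39, 0.000164) and mcm7 (-2.53, 0.000158), a part of the replicative helicase. Of 23 genes of spindle motors and cytokinesis 18 fell, with kif23 at -2.58 (0.00105) and tacc3 at -2.32 (0.000918).

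The mitotic kinase list beyond the members had 8 of 10 genes lower in old WT males, among them the partners of the Aurora kinases, incenp (-1.61, adjusted p 0.000575) and cdca8 (-2.98, 0.00689) for aurkb and tpx2 (-2.53, 0.00472) for aurka. Of condensin and cohesion genes 11 of 14 fell, and of the cyclin and kinase control list 6 of 10, where both wee1 (-1.96, 6.94e-05) and pkmyt1 (-3.77, 0.000106), kinases that restrain cdk1, were among those that fell. Only 6 of 15 genes of the anaphase promoting complex fell, with anapc2 at -2.54 (0.000350), and 1 rose. In the list of cell cycle inhibitors and quiescence genes 8 of 18 were higher and 1 lower, where 13.3% of all genes were called higher. The largest rise was that of btg1 (3.15, 7.97e-06), an antiproliferative gene, and with it rose tob1b (2.12, 0.000107), tob1 (1.96, 0.000133) and ccng2 (2.01, 0.000297), a cyclin linked to cell cycle arrest. The gene that fell was rb1, the retinoblastoma gene (-1.58, 0.0165), and cdkn1a, the gene of p21, was not called (0.23, 0.729); both were named after their values were seen.

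With age in fed WT males 109 of the 161 genes rose and 2 fell, with a median of 2.62, where 6.13% of all genes rose and 3.3% fell. Of the spindle checkpoint and kinetochore list 19 of 21 rose, as did 22 of 24 of the S phase list, 20 of 23 of the motors, 10 of 10 of the mitotic kinase list and 3 of 15 of the anaphase promoting complex. Among them were ndc80 (4.43, edgeR adjusted p 0.000639), which holds microtubules at the kinetochore, and foxm1 (4.12, 0.00236) and mybl2 (4.51, 0.000394), transcription factors of the G2 and M phase genes. In fed Het males 0 of the 161 were called for age, with a median of 0.80. In fed old males 10 of the 161 were lower in Het and 2 higher, with a median of -0.85, where 3.88% of all genes were lower and 3.45% higher, so that the share of calls was near the background. The checkpoint genes bub3 (-1.36, 0.0154) and bub1b (-1.59, 0.0469) were among the lower, and cdkn1d (2.03, 0.00626) and btg1 (1.26, 0.0326) were the higher ones.

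The genes most like the members were found by the root mean square difference between a gene's centred profile of log2 CPM over the 12 liver groups and the mean profile of the members, among 10429 genes whose median difference was 1.27. The nearest was aspm, a spindle pole gene, at 0.155, followed by cenpe, a kinetochore motor, at 0.204 and espl1, the gene of separase, which cuts cohesin, at 0.295. Next came hmgn1b at 0.300, the motor kif20a at 0.316, the cytokinesis kinase cit at 0.328, numa1, which anchors the spindle poles, at 0.337, and anln2 at 0.338. Among the members themselves the difference from their own mean was smallest for aurka, at 0.171, and largest for aurkb, at 0.506, and cdc20, at 0.453.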

How the data were processed

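Liver and muscle RNA was sequenced with poly(A) selection. The authors deposited raw counts per gene and fish. Per the labels' protocols, livers were prepared with a KAPA mRNA HyperPrep kit and muscles with a KAPA Stranded mRNA-Seq kit. The sequencing instrument differed between the tissues as well. The submitters' processing notes name FastQC 0.11.8, Trim Galore 0.6.4, cutadapt 3.4 and STAR 2.7.6a. The genome build, annotation, counting tool and strand setting are not given in the sources used here, so overlapping genes and near-identical copies are uncertain. Symbols for LOC identifiers were looked up in RefSeq genes of the assembly NfurGRZ-RIMD1, for names alone (5241 of 14280 matched), and no sequence is shown.

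The main test was edgeR's quasi-likelihood test (edgeR 4.0.16, R 4.3.3, TMM size factors, filterByExpr with a minimum count of 10 and a minimum total of 15). The model held 1 mean for each group of a tissue, all its libraries entered, and comparisons were contrasts of those means. The tissues were compared in 54 libraries of 27 fish. Benjamini-Hochberg adjustment covered all genes tested, and called means an adjusted p under 0.05. In counts of genes of a list, fell and rose mean called lower and called higher. Log2 CPM used a prior count of 2, and the floor was 3 counts. Alternatives were DESeq2 1.42.0, RLE size factors, no filter, fits restricted to the groups of a comparison, leaving out each library, and the fish as a block. The script was tested on simulated counts with known changes.

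Fish numbers pair the tissues, because the series' design text says that both came from the same fish. In 27 pairs the deviations from group means correlated with r of -0.0057 to 0.617 (median 0.176), over 0.1 in 24. All 84 pairs of libraries within groups differed by more than sampling noise (chi-square per degree of freedom at least 15.05). Whether fish of a group were housed together is not known, and p-values measure the spread between fish. The members, the gene lists and the tests were chosen with earlier results of these data known. Named beside the members were up to 4 genes of a list by smallest p and the 8 genes with the nearest profile among those with a mean log2 CPM of at least 0. The floor covers counting error alone, while SDs and SEs include the spread between fish.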

Additional observations from a re-analysis of the deposited data

Results flagged for a closer look

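In the 80 groups of 4 fish formed by gene and group, 8 had a highest or lowest fish far from the others by Dixon's ratio at the 95% level, which chance gives in about 1 in 20 groups. In the livers of fed old Het males, fish 14 stood apart for cdk1 (17.9 CPM), mki67 (84.4 CPM) and top2a (43.9 CPM). In muscle of young Het males, fish 39 stood apart for cdk1 (1.49 CPM) and cdc20 (1.33 CPM). In the livers of fasted old Het females, fish 22 stood apart for bub1 (0.708 CPM), and in the muscles of that group fish 21 did so for aurkb (0.354 CPM) and fish 24 for cdk1 (0.391 CPM). These last 3 values rest on 11 or 12 reads.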

How the results depend on the processing

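Of the 48 calls of a member in a comparison, 47 were kept with RLE size factors, 45 with no filter on low counts and 47 with DESeq2, and 0 changed sign under any of these. A fit of only the groups compared kept 27 of the 41 calls it could give. For numbers of called members that moved by over 1.5 times, the cause was not tested. DESeq2 called 2 members for fasting in young Het males, 1 for age in muscle and 3 for sex in muscle, and no filter left 0 for sex in muscle. The fit of only the groups compared called 4 for fasting in young Het males, 0 for fasting in old WT males and 2 for genotype in fed old males. Without each fish in turn, the number ran from 1 to 3 for fasting in young WT males, 0 to 2 in young Het males, and 5 to 9 in old Het males. It ran from 0 to 1 for the Het minus WT difference in fasting response of old males, 0 to 3 for age in fasted liver, 0 to 10 for genotype in fed old males, 0 to 1 for age in muscle and 0 to 2 for sex in muscle. With a replicate block for the fish, 6 members were called between the tissues, as without it, and 16044 genes in place of 15901. No size factor alternative moved the median of all genes by over 0.1. Depth limits aurka and cdc20 most, with fewer than 10 reads in 24 and 15 of 41 livers.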

Other observations

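In fed young males the genes of DNA replication and those of mitosis gave different counts between the genotypes. Of 24 genes of replication licensing and S phase, edgeR called 10 higher and 0 lower in Het than in WT, where 2.78% of all genes were called higher, among them gmnn (1.80, adjusted p 0.00152), which holds back licensing, cdt1 (1.97, 0.00993), which loads the helicase, and pole (3.17, 0.0105), a replicative polymerase. Of the 10 mitosis genes 0 were called there, and mki67 had an estimate of 1.10 ± 0.66 (SE, adjusted p 0.404). The difference between the lists was not tested. With fasting in young WT males, 12 of the 161 cell cycle genes were called higher and 8 lower, where 6.51% of all genes were higher and 4.14% lower. Among the higher were gmnn (1.26, edgeR adjusted p 0.0213) and mcm7 (1.55, 0.0266), named by smallest p. Of the 10 mitosis genes 4 were called lower. Of 18 inhibitor and quiescence genes 6 were called higher, with ccng2 at 3.00 (2.34e-05) and cdkn1ba, a gene of p27, at 1.20 (0.00430).

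The leukocyte marker sum of a fish could be high in both of its tissues. Fish 18 had 662 CPM in liver and 157 CPM in muscle, and fish 26 had 538 CPM in liver and 237 CPM in muscle, while the median was 40.8 CPM over 41 livers and 30.8 CPM over 27 muscles. The muscle of fish 25 had a hepatocyte marker sum of 3598 CPM, where the median muscle had 22.2 CPM, and a mean of -1.12 log2 CPM over the 10 mitosis genes. The median skeletal muscle marker sum over the livers was 7.09 CPM.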
